A study of Rattus norvegicus with 12 samples.

Results

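The Hsp90 and Hsp60 chaperone machines, with the heat shock factor Hsf1, were followed in rat skull bone after cutting with a laser or with a bur. The set holds 10 genes of the 22937 measured, chosen by name: the cytosolic Hsp90 genes Hsp90aa1 and Hsp90ab1, the mitochondrial Hsp90 Trap1, the Hsp60 chaperonin Hspd1 with its lid Hspe1, the Hsp90 co-chaperones Stip1, Ahsa1, Chordc1 and Cdc37, and Hsf1. Each gene was read from the probe with the highest mean signal, and its other probes are given beside it. In the laser group a rectangular defect of 8 by 3 mm was ablated in the calvaria, the flat bone of the skull vault, with 3 strokes of an Er:YAG laser at 127 mJ per pulse and 20 Hz. In the bur group a defect of that size was drilled. In the control group the periosteum was removed and the bone was not ablated, so all groups share the lifting of the periosteum. Bone was taken 6 h after surgery from animals 10 weeks old, and 4 arrays were made per group. Whether the 4 samples per group are 4 animals is not stated in the labels, and p-values therefore describe sample-to-sample spread that may be technical. No strain is given in the sources used here.

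Hsp90 is an ATP-driven clamp that holds kinases, steroid receptors and other clients in a form that can be activated. Stip1 hands clients over from Hsp70, Cdc37 brings kinases, and Ahsa1 speeds the ATPase cycle. Hsp60 rings, capped by Hsp10, fold proteins inside mitochondria. Hsf1 is held inactive in unstressed cells and, once released by misfolded protein, binds inverted repeats of GAA in the promoters of chaperone genes, many of which it switches on within hours of heat.

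Levels are given as log2 signal minus the 75th percentile of the array, so 0 is the level of that percentile and 1 unit is a factor of 2. They compare arrays for a given probe and say nothing of which gene is more abundant. All 10 genes were well above background on 12 of 12 arrays. The 4 control arrays lay on a slide of their own, while 2 further slides each held 2 laser and 2 bur arrays, replicates 1 and 2 on slide 3 and replicates 3 and 4 on slide 1. Slide and scan therefore cannot be told apart from surgery in any comparison with control, whereas laser and bur arrays were balanced over their 2 slides. The main fit had no slide term, and fits by slide are given beside it. Spike-in spots read 8.13 to 8.45 on laser arrays and 8.21 to 8.83 on bur arrays, against 4.92 to 5.34 on control arrays (log2 signal). Of the tissue markers, 6 of 7 osteocyte genes were measured, and their summed signal, relative to the 75th percentile, was 251 to 426 on laser and 235 to 343 on bur arrays, against 61.1 to 94.6 on control arrays. All 6 passed as higher in each treated group. Osteoblast genes passed as higher for 8 of 8 in the laser group and 7 of 8 in the bur group. In both treated groups 6 of 8 erythroid and 6 of 6 proliferation genes passed as lower. The summed erythroid signal was 903 to 1910 on laser and 1053 to 1636 on bur arrays, against 1292 to 1590 on control arrays, and that of the proliferation genes 3.94 to 24.4 and 7.49 to 36.8, against 57.3 to 109 on control arrays. Also passing as lower were 5 of 6 granulocyte precursor and 4 of 5 platelet genes in each treated group, 4 and 5 of 5 adipocyte genes, 6 and 5 of 6 neural and glial genes, 4 of 6 monocyte and macrophage genes in each and 4 and 3 of 6 B cell genes (laser and bur). Of 5 endothelial genes 1 passed as higher with laser and 2 with the bur. No skeletal muscle gene passed, with a summed signal of 2.70 to 8.04 on laser and 1.25 to 7.40 on bur arrays, against 1.55 to 188 on control arrays. On no array of the laser group was 1 adipocyte and 1 neural gene above background, nor 1 muscle gene in the bur group. The part of these cell types in the results below was not tested. Among all genes 32.2% passed as higher and 17.6% as lower with laser, and 32.7% and 18.3% with the bur. No gene of the 12 marker lists passed between laser and bur. In such bulk tissue, fewer cells of a type and less RNA per cell cannot be told apart.

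None of the 10 genes passed the test between laser-ablated and bur-drilled bone. The count was 0 of 10 after adjustment over all genes with limma, where 1 of 22937 genes (0.00436%) passed, and 0 of 10 at an unadjusted p under 0.05, which 6.5% of all genes reached. The differences (laser minus bur) ran from -0.06 for Trap1 and Hsf1 to 0.27 for Ahsa1, which corresponds to 1.21-fold. In 8 of 10 genes the laser mean was the higher, with a median difference of 0.16 against 0.01 over all genes. Laser and bur arrays did not overlap for 3.57% of all genes and overlapped for all 10. The 95% intervals together spanned -0.48 to 0.60, that is from 1.40-fold lower to 1.52-fold higher in the laser group. For Ahsa1, the smallest p of the set, the levels were 2.81, 2.77, 3.11 and 2.90 on laser arrays and 2.45, 2.45, 2.83 and 2.76 on bur arrays. The difference was 0.27 ± 0.14 (SE, n = 4 each), with an unadjusted p of 0.0707 and an adjusted p of 0.812 by limma. Within slides, the differences of the 10 genes ran from -0.18 to 0.38 on slide 3 and from -0.09 to 0.32 on slide 1, with Ahsa1 at 0.34 and 0.21.

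**Figure D1:**
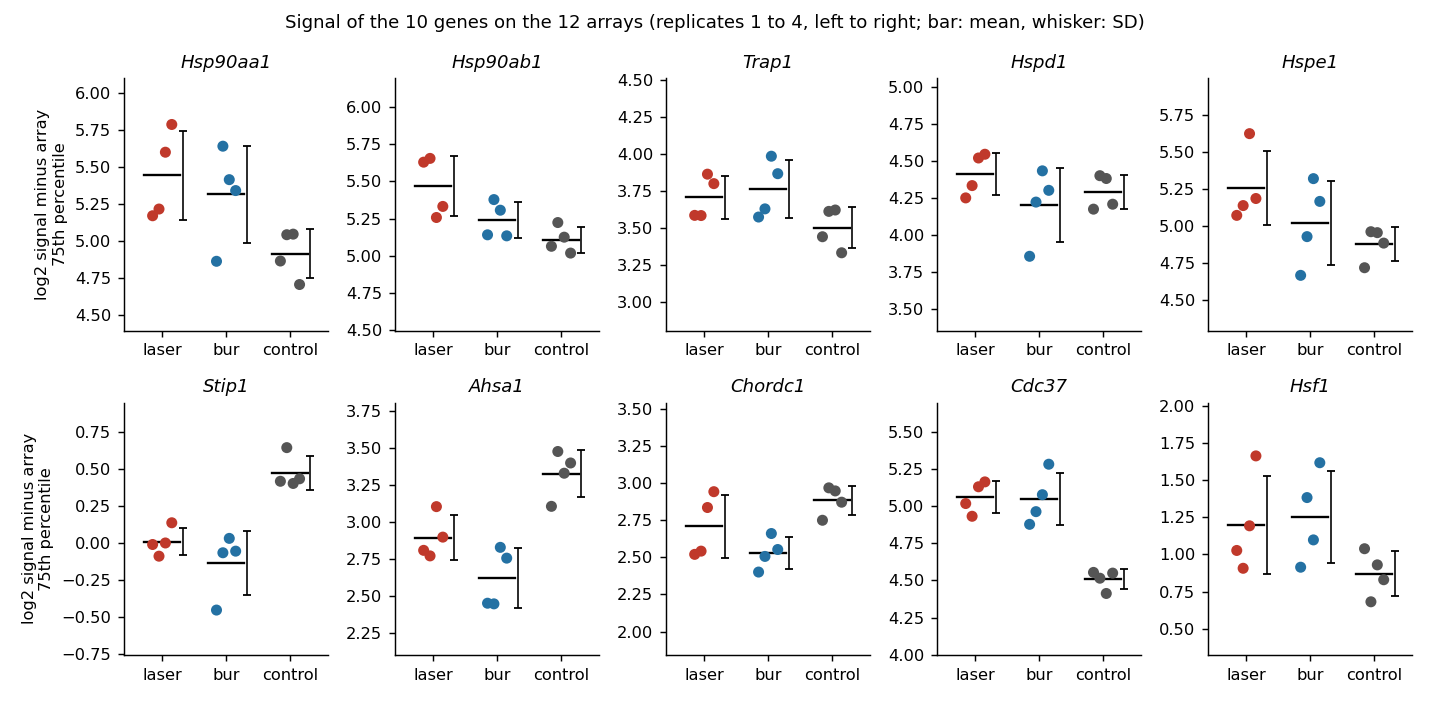
Log2 signal minus the array's 75th percentile for the 10 genes (vertical axes, each panel spanning the same range) on the laser, bur and control arrays; points are arrays, bars the group mean and whiskers the SD of 4 arrays. Laser and bur points overlap in every panel, while for Cdc37, Stip1 and Ahsa1 no treated array overlaps the control arrays, with the lowest control array of Ahsa1 level with the highest laser array to 2 decimals.

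Against control bone, the set split in direction. Of 10 genes, 3 were higher and 2 lower in laser-ablated bone, where 32.2% and 17.6% of all genes passed as higher and lower (49.8% in all). In bur-drilled bone 1 was higher and 3 lower, where the shares of all genes were 32.7% and 18.3% (51.0% in all). The members' shares of 5 in 10 and 4 in 10 were thus near the background. At an unadjusted p under 0.05, 6 of 10 and 4 of 10 genes passed, against 57.2% and 58.3% of all genes. The arrays of the groups did not overlap for 6 of 10 genes between laser and control (48.7% of all genes) and for 4 of 10 between bur and control (46.0%). The median gene was 0.21 higher in the laser group and 0.23 higher in the bur group, and under other scalings that median was between 0.03 and 0.24 for laser and between -0.01 and 0.25 for bur. Of all genes that passed between bur and control 64.2% were higher, against 51.6% after normexp background correction and 54.0% in the authors' normalized table, so changes below are also given relative to the median gene. Both comparisons use the same control arrays.

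Among the co-chaperones, Cdc37, which recruits kinases to Hsp90, rose in both treated groups. It read 5.02, 4.93, 5.13 and 5.16 on laser arrays and 4.88, 4.96, 5.08 and 5.28 on bur arrays, against 4.55, 4.52, 4.41 and 4.55 on control arrays. Every treated array was above every control array. The difference from control was 0.55 ± 0.12 (SE) in the laser group, or 1.47-fold (adjusted p = 0.00291), and 0.54 ± 0.12 in the bur group, or 1.46-fold (adjusted p = 0.00324). Relative to the median gene it was 0.34 and 0.31 higher, and between 0.18 and 0.72 over the 6 scalings tried. With the treated arrays of slide 3 and then of slide 1 alone it was 0.47 and 0.64 with laser and 0.41 and 0.67 with the bur. The laser value fell short with quantile normalization, at 0.27 and an adjusted p of 0.0667. The single Cdc37 probe starts at base 1542 of the transcript and holds a polyA signal. An effect of probe position, as described below for other genes, could not be tested for it. Nor could it be tested for Stip1, Ahsa1, Chordc1 and Trap1. These also have a single probe each, starting at bases 1608, 883, 2012 and 2175.

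Stip1, the adaptor that joins Hsp70 to Hsp90, fell in both treated groups. It read -0.01, -0.09, 0.00 and 0.14 on laser arrays and -0.45, -0.07, 0.03 and -0.05 on bur arrays, against 0.42, 0.64, 0.40 and 0.43 on control arrays, with no overlap. The difference from control was -0.46 ± 0.13 with laser (adjusted p = 0.0117) and -0.61 ± 0.13 with the bur (adjusted p = 0.00301). Control replicate 2 stood apart from the other control arrays, and both differences still passed without it. By slide the values were -0.52 on slide 3 and -0.41 on slide 1 with laser, of which the slide 1 value did not pass (adjusted p = 0.0558), and -0.73 and -0.49 with the bur, which both did.

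Ahsa1, which activates the Hsp90 ATPase, also fell in both. Its control arrays read 3.11, 3.48, 3.33 and 3.40, above all bur arrays and all laser arrays, whose values stand above, though the lowest control and the highest laser array are level to 2 decimals. The difference was -0.43 ± 0.14 with laser (adjusted p = 0.0230) and -0.71 ± 0.14 with the bur (adjusted p = 0.00210). The bur value passed without any 1 array. The laser value was lost without laser replicate 1 or 2 or control replicate 2 or 4, where it was -0.38 to -0.41, and with the laser arrays of slide 1 alone (-0.33, adjusted p = 0.0897, against -0.54 on slide 3).

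Chordc1, a zinc-binding co-chaperone, passed as lower with the bur and not with laser. It read 2.52, 2.54, 2.84 and 2.94 on laser arrays and 2.40, 2.51, 2.66 and 2.55 on bur arrays, against 2.75, 2.97, 2.95 and 2.87 on control arrays. The difference was -0.35 ± 0.13 with the bur (adjusted p = 0.0361) and -0.17 ± 0.13 with laser (adjusted p = 0.264). Every bur array lay below every control array, while laser arrays overlapped both, and laser minus bur did not pass (0.18, adjusted p = 0.879). The bur call was lost without bur replicate 1, 2 or 4 or control replicate 2, 3 or 4, where the value was -0.31 to -0.36. It was also lost with slide as a block (adjusted p = 0.0683) and with the bur arrays of slide 1 alone (-0.28, adjusted p = 0.0924). The laser value passed on slide 3 alone (-0.35, adjusted p = 0.0329), with quantile normalization (-0.37, adjusted p = 0.0210) and in the authors' normalized table (-0.37, adjusted p = 0.0279).

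**Figure D2:**
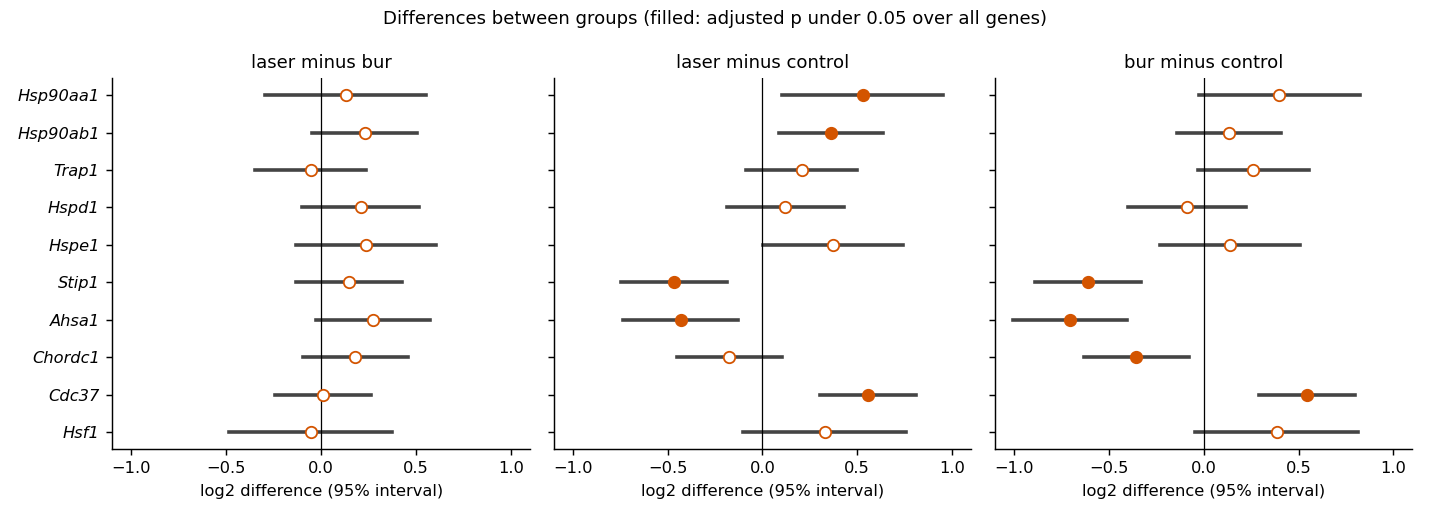
Log2 differences of the 10 genes between laser and bur, laser and control, and bur and control (horizontal axes), with 95% intervals; filled points passed the adjusted threshold over 22937 genes. No point is filled between laser and bur, and the filled points against control lie on both sides of 0, Cdc37 at 0.55 and 0.54 and Ahsa1 at -0.43 and -0.71.

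The cytosolic Hsp90 genes passed as higher with laser from the probe used, and each had another probe that passed as lower. With slide as a block neither call held (adjusted p = 0.0888 for Hsp90aa1 and 0.0728 for Hsp90ab1). Against control that block leaves the difference as it is and cannot separate slide from surgery. Hsp90aa1, the stress-inducible form, read 5.17, 5.22, 5.60 and 5.79 on laser arrays and 4.86, 5.64, 5.41 and 5.34 on bur arrays, against 4.87, 5.04, 5.05 and 4.71 on control arrays. The laser arrays lay above the control arrays and the bur arrays overlapped them. The difference was 0.53 ± 0.19 with laser, or 1.44-fold (adjusted p = 0.0405), and 0.40 ± 0.19 with the bur (adjusted p = 0.103). It passed for the laser arrays of slide 1 (0.78, adjusted p = 0.0203) and not for those of slide 3 (0.28, adjusted p = 0.288). Without laser replicate 3 or 4, bur replicate 4 or any of the control replicates the call was lost, at 0.41 to 0.57, and without bur replicate 1 the bur value passed (0.55, adjusted p = 0.0289).

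Hsp90ab1, the constitutive form, read 5.63, 5.66, 5.26 and 5.33 on laser arrays and 5.14, 5.38, 5.31 and 5.13 on bur arrays, against 5.06, 5.22, 5.12 and 5.02 on control arrays. Again the laser arrays lay above the control arrays and the bur arrays overlapped them. The difference was 0.36 ± 0.13 with laser, or 1.29-fold (adjusted p = 0.0328), and 0.13 ± 0.13 with the bur (adjusted p = 0.386). Here the laser arrays of slide 3 carried the call (0.54, adjusted p = 0.00779) and those of slide 1 did not pass (0.19, adjusted p = 0.267). It was lost without laser replicate 1 or 2 or control replicate 1, 3 or 4, at 0.30 to 0.37. Relative to the median gene Hsp90aa1 was 0.32 higher with laser (0.14 to 0.59 over 6 scalings) and Hsp90ab1 0.15 higher (-0.04 to 0.39). Within arrays, Hsp90aa1 minus Hsp90ab1 was -0.46 and -0.44 on the laser arrays of slide 3 and 0.34 and 0.45 on those of slide 1. On bur arrays it was -0.28, 0.26, 0.11 and 0.21, against -0.31 to -0.08 on control arrays.

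The probes nearer the 5′ end of both genes gave the opposite result. For Hsp90aa1 the probe used starts at base 2712 of the transcript and another at base 436. The probe at base 436 read 4.67, 4.65, 5.07 and 5.18 on laser arrays and 4.48, 5.19, 4.70 and 4.46 on bur arrays, against 5.67, 5.88, 5.80 and 5.63 on control arrays. It was lower by -0.85 ± 0.19 with laser and -1.04 ± 0.19 with the bur (adjusted p over all probes = 0.00386 and 0.00137). For Hsp90ab1 the probe at base 638 read 3.94 to 4.60 on laser arrays and 4.13 to 4.57 on bur arrays, against 5.05 to 5.57 on control arrays, and its difference was -1.13 ± 0.18 with laser and -1.03 ± 0.18 with the bur. The probe at base 2082 lay between, at -0.52 ± 0.10 and -0.92 ± 0.10. All of these passed, with no overlap between treated and control arrays. A further Hsp90aa1 probe maps to the strand opposite to the other probes, was dim, and did not pass (0.35 and 0.32). The 5′ probes of the cytosolic Hsp90 genes and of Hspd1 are shown because their sign against control differs from that of the probe used or because it passed where that probe did not. They are 60-base probes with the coordinates of the array design on RGSCv3.4, at chr6:135417971-135418030 on the minus strand for Hsp90aa1, at chr9:11036014-11036073 and chr9:11038501-11038672 on the plus strand for Hsp90ab1, and at chr9:53886764-53886823 and chr9:53884671-53884730 on the minus strand for Hspd1. The 172-base span of the Hsp90ab1 probe at base 2082 means that it joins exons.
Hsp90aa1, base 436: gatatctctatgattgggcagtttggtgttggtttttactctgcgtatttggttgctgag
Hsp90ab1, base 638: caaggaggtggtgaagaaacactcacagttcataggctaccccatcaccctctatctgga
Hsp90ab1, base 2082: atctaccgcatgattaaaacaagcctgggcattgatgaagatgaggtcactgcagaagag
Hspd1, base 1168: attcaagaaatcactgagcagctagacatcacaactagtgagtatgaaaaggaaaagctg
Hspd1, base 1689: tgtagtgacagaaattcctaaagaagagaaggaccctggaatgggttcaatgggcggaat

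Hspd1, the Hsp60 subunit, did not pass from the probe used, at base 2149, and was lower from the others. The probe used read 4.25, 4.33, 4.52 and 4.55 on laser arrays and 3.86, 4.22, 4.43 and 4.30 on bur arrays, against 4.17, 4.40, 4.38 and 4.21 on control arrays, all overlapping. Its difference was 0.12 ± 0.14 with laser (adjusted p = 0.488) and -0.09 ± 0.14 with the bur (adjusted p = 0.614). The probe at base 1689 read 1.27, 1.25, 1.37 and 1.25 on laser arrays and 0.77, 0.69, 0.95 and 0.67 on bur arrays, against 1.48, 1.72, 1.77 and 1.56 on control arrays. The 3 groups did not overlap and stood in the order bur, laser, control. It was lower by -0.35 ± 0.11 with laser and by -0.86 ± 0.11 with the bur (adjusted p = 0.0227 and 0.000294), and the laser arrays exceeded the bur arrays by 0.52 ± 0.11 (unadjusted p = 0.000662, adjusted p = 0.401 over all probes). The Hsp90ab1 probe at base 2082 had the same order, with 3.45, 3.33, 3.45 and 3.51 on laser arrays and 3.11, 2.90, 3.10 and 3.05 on bur arrays, a difference of 0.40 ± 0.10 (unadjusted p = 0.00267, adjusted p = 0.438). Neither passed adjustment, and these probes were singled out after their values were seen. The Hspd1 probe at base 1168 was at -0.42 ± 0.12 with laser and -0.64 ± 0.12 with the bur, both passing.

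Over the 18 probes of the 10 genes, 4 passed as higher and 7 as lower with laser, 2 as higher and 8 as lower with the bur, and 0 between laser and bur. Shares over all probes were not counted. Among all genes 32.2% passed as higher and 17.6% as lower with laser, and 32.7% and 18.3% with the bur. Probes of the same gene are not separate cases. The latest minus the earliest sense probe was 1.38 with laser and 1.44 with the bur for Hsp90aa1, 1.50 and 1.16 for Hsp90ab1, and 0.54 and 0.55 for Hspd1. In the comparison of laser with bur the same gaps were -0.06, 0.33 and -0.01. The pairs of Hspe1 and Hsf1 probes lie 45 and 279 bases apart and differed by 0.04 to 0.16 against control. Over all genes, 1773 pairs of probes on the same transcript at least 500 bases apart gave a median gap of 0.23 with laser and 0.15 with the bur, and 0.05 between laser and bur. The gaps went both ways, with quartiles of -0.30 and 0.63 with laser and -0.43 and 0.64 with the bur. They were positive for 62.2% and 57.2% of pairs. Centred over arrays, the median gap was 0.06 to 0.14 on laser arrays and -0.11 to 0.15 on bur arrays, against -0.16 to -0.10 on control arrays. RNA integrity and transcript ends were not tested, and treatment and slide cannot be told apart here. RefSeq names 16 pseudogenes of Hsp90aa1, 23 of Hsp90ab1 and 20 of Hspd1 on GRCr8, so signal of near-identical copies may be shared among these probes. The authors' deposited table lists 1 row per accession, and for the Hsp90aa1 transcript it gives -0.518 with laser (adjusted p = 0.0597) and -0.559 with the bur (adjusted p = 0.0455). For Hspd1 it gives -0.232 with laser (adjusted p = 0.0666) and -0.439 with the bur (adjusted p = 0.0047).

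**Figure D3:**
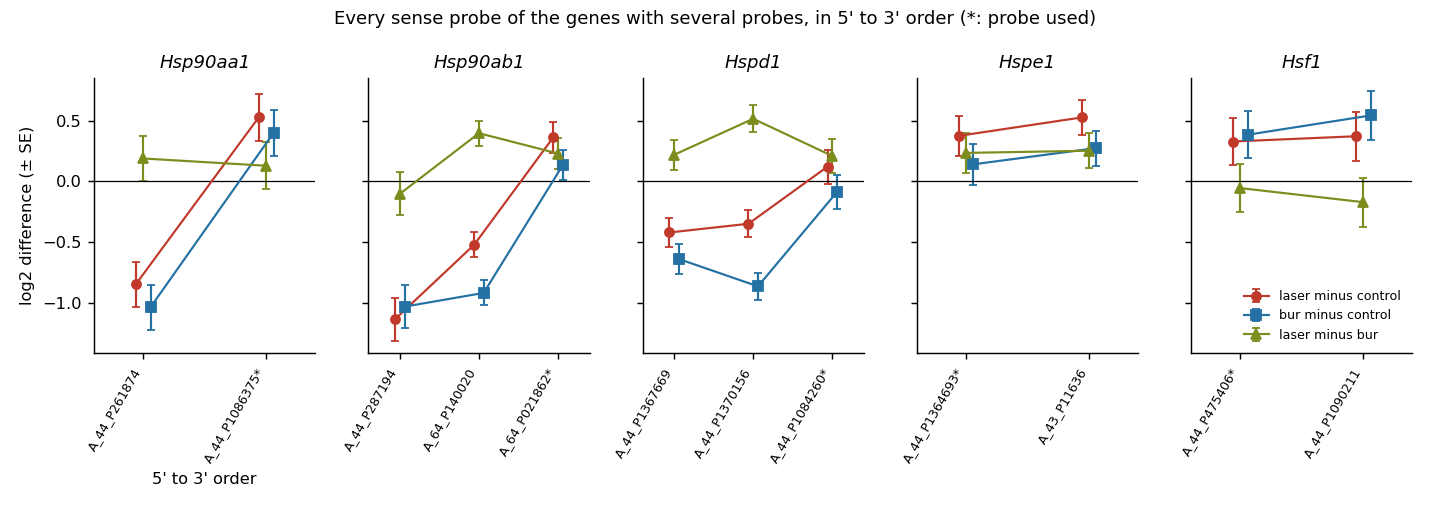
Log2 difference ± SE (vertical axis) of every sense probe of the 5 genes with several probes, ordered from the 5′ to the 3′ end, for laser minus control, bur minus control and laser minus bur; an asterisk marks the probe used. For Hsp90aa1 the early probe is at -0.85 and -1.04 against control and the late probe at 0.53 and 0.40, while laser minus bur stays between -0.17 and 0.52 for all probes shown.

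Hspe1, the Hsp10 lid of the Hsp60 ring, read 5.07, 5.14, 5.62 and 5.18 on laser arrays and 4.67, 4.93, 5.32 and 5.16 on bur arrays, against 4.72, 4.96, 4.95 and 4.88 on control arrays. The laser arrays lay above the control arrays, but the difference of 0.37 ± 0.17 did not pass (adjusted p = 0.0834), nor did that of 0.14 ± 0.17 with the bur. Its overlapping second probe passed with laser, at 0.53 ± 0.14 (adjusted p = 0.0117 over all probes). Trap1, the Hsp90 of mitochondria, read 3.58 to 3.86 on laser arrays and 3.57 to 3.98 on bur arrays, against 3.33 to 3.62 on control arrays. Its differences of 0.21 ± 0.13 and 0.26 ± 0.13 did not pass (adjusted p = 0.212 and 0.118).

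Hsf1 read 1.03, 0.91, 1.19 and 1.66 on laser arrays and 0.91, 1.38, 1.10 and 1.62 on bur arrays, against 1.04, 0.68, 0.93 and 0.83 on control arrays. Replicate 4 was the highest array of each treated group. The difference was 0.33 ± 0.20 with laser (adjusted p = 0.179) and 0.38 ± 0.20 with the bur (adjusted p = 0.119), and laser minus bur was -0.06 ± 0.20 (adjusted p = 0.994). Its other probe gave 0.37 and 0.54, of which the bur value passed over all probes (adjusted p = 0.0433). The authors' deposited comparisons, whose model and combination of probes are not given, pass the row under the name of the probe used as higher. They list 0.321 with laser (adjusted p = 0.0489) and 0.436 with the bur (adjusted p = 0.0142). The arrays measure Hsf1 mRNA, not the binding or modification of the protein.

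The promoters of 8 of the 10 genes were found in RefSeq on GRCr8, with 250 bases before and 50 after the start. Those of Hsp90aa1 and Hsf1 were not found and so were not searched. A pair of facing units of a heat shock element, GAANNTTC or TTCNNGAA on either strand, stood in 5 of these 8 (Hspd1, Hspe1, Stip1, Chordc1 and Cdc37), against 15.4% of 27457 promoters. A run of 3 such units, each facing the next, which contains the shorter motifs, stood in 3 (Hspd1, Hspe1 and Chordc1), against 0.736%. Hspd1 and Hspe1 are divergent neighbours, their windows share 211 bases, and both matches are the same element, so they are not separate cases. Stretches around the matches are shown, with the matched bases in capitals, because they set genes that rose (Cdc37), fell (Stip1, and Chordc1 with the bur) or did not pass (Hspe1) side by side. They were chosen after the search, and lie at chr9:64084217-64084326 (plus strand), chr1:213657655-213657714 (minus), chr8:23650827-23650856 (plus, just after the start) and chr8:27967031-27967090 (minus).
Hspe1, shared with Hspd1: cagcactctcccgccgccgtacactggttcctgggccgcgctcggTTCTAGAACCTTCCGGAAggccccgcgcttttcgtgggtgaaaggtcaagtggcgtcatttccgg
Stip1: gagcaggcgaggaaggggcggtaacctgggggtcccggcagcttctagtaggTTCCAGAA
Chordc1: accgGAACGTTCGGGAAGATTCCTGAAgca
Cdc37: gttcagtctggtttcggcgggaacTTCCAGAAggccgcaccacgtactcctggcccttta
Of the set, none of the 5 genes with a match passed between laser and bur. The sign of their difference from control varied, with Cdc37 higher and Stip1 lower. The promoters of 18 of 21 genes named from the partner lists below were found, 6 with 2 units and 4 with 3 (Hsph1, Hspa8, Dnaja1 and Cct4). Those 4 were at 1.57, 0.29, 0.71 and 0.39 (laser minus bur), and none passed in the main fit. They were named for a small adjusted p in that comparison, and a part of the element in their values was not tested. A match is a string of letters and does not show that the factor binds.

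The partners of these machines were read in 7 further lists. Beside their counts against control stand the shares of all genes, 32.2% higher and 17.6% lower with laser. With the bur these shares were 32.7% and 18.3%. Of 11 Hsp70 and Hsp110 genes, 1 passed as higher in laser than in bur bone, Hspa1a, the heat-inducible Hsp70, which was also the single gene of the 22937 to pass. It read 4.53, 4.56, 5.64 and 6.14 on laser arrays and 1.0, 1.50, 1.58 and 1.31 on bur arrays, against -0.35, 0.84, 0.64 and 0.97 on control arrays. The difference was 3.87 ± 0.39 between laser and bur, or 14.6-fold (adjusted p = 0.0175), and 4.69 ± 0.39 between laser and control, while that between bur and control, 0.82 ± 0.39, did not pass (adjusted p = 0.0989). The call between laser and bur was lost without laser replicate 3, any of the bur replicates or control replicate 3, where the difference was 3.73 to 3.95 and the adjusted p at most 0.121. It was 4.45 on slide 1 (adjusted p = 0.0216) and 3.29 on slide 3 (adjusted p = 0.223). Its other probe was at 3.50 (laser minus bur) and did not pass over all probes (adjusted p = 0.124). In the authors' deposited comparison, whose model and combination of probes are not given, the row under that probe's name was at 3.29 (adjusted p = 0.0109). The probe named for Hspa1b, a near-identical neighbour, was well above background on 0 of 12 arrays, and whether transcripts of Hspa1b reach the Hspa1a probes was not tested.

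Some other heat shock genes had larger laser minus bur values than any of the 10 but did not pass in the fit without a slide term. Their lists as a whole did not stand apart in that way. The list medians were 0.23 for Hsp70 and Hsp110, 0.16 for the small heat shock genes and 0.19 for DnaJ, against 0.16 for the 10. The laser mean was the higher in 8 of 11, 6 of 8 and 11 of 14 genes of these lists. Hsph1, the Hsp110 exchange factor of Hsp70, was at 1.57 (adjusted p = 0.117), and passed with slide as a block (1.57, adjusted p = 0.0333) and with normexp (1.10, adjusted p = 0.0478). Hspb7, a small heat shock protein of muscle and heart, was at 1.52 (adjusted p = 0.408), Cryab, a small heat shock protein, at 0.77 (adjusted p = 0.616) and Dnaja1, a J-domain partner of Hsp70, at 0.71 (adjusted p = 0.261). Against control, Hsph1 was higher with laser (0.95, adjusted p = 0.00461) and lower with the bur (-0.62, adjusted p = 0.0334), a call lost with slide as a block (adjusted p = 0.0764) and without bur replicate 1 or 4 or control replicate 2, 3 or 4. Of 11 Hsp70 and Hsp110 genes, 5 were higher and 1 lower with laser, and 3 higher and 3 lower with the bur. Beside Hspa1a and Hsph1, the higher ones with laser were Hspa4l (1.74), Hspa8, the constitutive Hsp70 (0.94), and Hspa13 (0.71), and the lower one was Hspa2 (-1.27). With the bur Hspa4l (1.62), Hspa8 (0.65) and Hspa13 (0.42) were higher and Hspa2 (-1.25), Hspa14 (-0.58) and Hsph1 lower. Hspa8 had 3 other probes, of which 2 passed as higher in both treated groups and 1 was at 0.04 with laser and passed as lower with the bur (-0.47, adjusted p over all probes = 0.00793). The other Hspa13 probe was at 0.05 with laser, which did not pass, and at 0.54 with the bur, which did. Of 8 small heat shock genes with Bag3, 6 were higher and 0 lower with laser and 5 higher and 0 lower with the bur. Cryab was at 2.11 and 1.34 and Bag3, which links them to Hsp70, at 1.15 and 0.84. The median of that list was 1.29 with laser and 1.03 with the bur, against 0.27 and 0.14 for the Hsp90 and Hsp60 set and 0.21 and 0.23 for all genes.

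Of 19 other Hsp90 genes and co-chaperones, 0 passed between laser and bur, 5 were higher and 4 lower with laser, and 3 higher and 4 lower with the bur. Among all genes 49.8% passed in either direction with laser and 51.0% with the bur. Genes in small counts, in this and the other lists, are named after their values were seen. With laser the higher ones were Rpap3 (0.80), Cdc37l1 (0.64), Nudcd1 (0.49), Tsc1 (0.37) and Ppid (0.35), and the lower ones Pih1d1 (-0.90), Ppp5c (-0.73), Hsp90b1, the Hsp90 of the endoplasmic reticulum (-0.63), and Sgta (-0.40). With the bur Rpap3, Cdc37l1 and Tsc1 were higher and Pih1d1, Ppp5c, Hsp90b1 and Sgta lower. The other Cdc37l1 probe was at 0.06 with laser and -0.0004 with the bur and did not pass. Ptges3, the p23 co-chaperone, was at 0.05 and -0.17 and did not pass. Rpap3 and Pih1d1 are subunits of one Hsp90 co-chaperone complex and stood on opposite sides of 0.

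Of 8 subunits of the cytosolic chaperonin TRiC, 0 passed between laser and bur, all 8 with the laser mean the higher, at 0.07 to 0.41. The laser mean was also the higher in 9 of 9 import and quality control genes of mitochondria. It was the higher in 10 of 19 other Hsp90 genes and co-chaperones and in 4 of 6 heat shock factors and regulators. That share over all genes was not counted. Against control, Cct3 (0.36) and Cct6a (0.39) were higher and Cct4 (-0.72) lower with laser from the probes used, while Cct3 was higher (0.28) and Cct4 (-1.11), Cct2 (-0.56), Cct5 (-0.39) and Cct7 (-0.38) lower with the bur. The other Cct6a probe passed as lower in both treated groups, at -0.92 with laser and -1.44 with the bur (adjusted p over all probes = 0.000589 and 0.000123), and the other Cct3 probe was at 0.0046 and -0.13 and did not pass. The Cct5 call was lost with slide as a block and without bur replicate 1 or 2 or control replicate 2 or 4. Of 14 DnaJ genes, 3 were higher and 4 lower with laser and 1 higher and 5 lower with the bur, with Dnajb4 at -0.26, which did not pass, and -0.63, which did. With laser Dnajb9 (0.66), Dnaja1 (0.58) and Dnaja2 (0.32) were higher and Dnaja4 (-1.96), Dnajb2 (-1.37), Dnajc5 (-0.87) and Dnajb5 (-0.85) lower, while with the bur Dnajc7 (0.34) was higher and Dnaja4 (-2.05), Dnajb2 (-1.34), Dnajc5 (-1.17) and Dnajb5 (-1.0) were lower with Dnajb4. The other Dnajc7 probe passed as lower, at -0.44 with laser and -0.44 with the bur (adjusted p over all probes = 0.0130 and 0.0121), and the other Dnajc5 probe was at 0.24 and 0.17 and did not pass. The other Dnajb4 probe was at -0.04 and 0.05 and did not pass either. Of 9 import and quality control genes of mitochondria, the compartment of Hspd1, Hspe1 and Trap1, 0 were higher and 6 lower in each treated group, at -1.03 to -0.40 with laser and -1.16 to -0.45 with the bur. Among all genes 17.6% passed as lower with laser and 18.3% with the bur. Timm44, a subunit of the import motor, was at -0.72 and -1.02 and was well above background on 6 of 12 arrays, while Grpel1, the exchange factor of mitochondrial Hsp70, was at 0.12 and -0.07 and did not pass. Of 6 heat shock factors and regulators, Hsf2 (0.68 and 0.51) and Hsf4 (0.99 and 0.98) were higher in each treated group. Hsbp1, which binds Hsf1, was at 0.33 and 0.15 and did not pass.

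**Figure D4:**
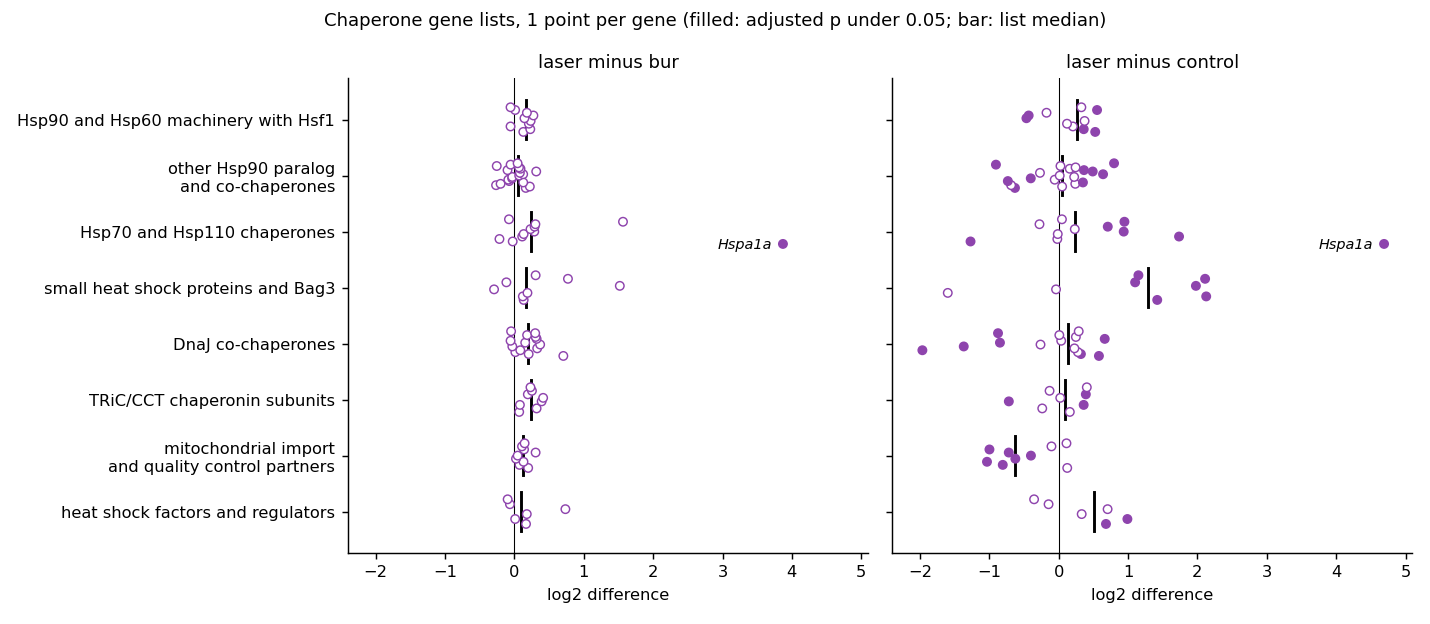
Log2 differences between laser and bur (left) and laser and control (right) for each measured gene of the Hsp90 and Hsp60 set and the 7 partner lists (vertical axis), with list medians as bars and passing genes filled. Between laser and bur Hspa1a is the single filled point, at 3.87, while the Hsp90 and Hsp60 set lies between -0.06 and 0.27.

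Over the 12 arrays, the genes whose level ran most like Hsp90aa1 were Cul5 (Pearson r = 0.937) and LOC100912653 (r = 0.919). Those most like Hspd1 were Zfp639 (r = 0.929) and Tomm22, a receptor of the mitochondrial import pore (r = 0.923). Those most like Hsf1 were Tmem229b (r = 0.962) and LOC102554398 (r = 0.960). These are descriptions over arrays that share slides and groups.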

How the data were processed

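RNA of rat calvaria was labelled with Cy3 and read on one-colour arrays, 12 in 3 groups by their titles. The deposited spot intensity values come from Agilent Feature Extraction, version 11.0.1.1 per the submitters' processing notes, which subtracts background, per the file headers. The authors also deposited log2 quantile-normalized values, and comparison tables with a log2 fold change and p-value for each accession. The sources used here do not give their model or how they combined probes.

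Of 62976 spots per array, processed signals were averaged over the spots of a probe, without control and outlier-marked spots, log2 transformed and scaled by subtracting the array's 75th percentile over 45598 probes. Probes well above background on at least 4 of 12 arrays were kept (30134), and for each name in the array files the brightest probe on average stood for the gene (22937 genes). limma 3.58.1 (R 4.3.3) was fitted to all 12 arrays with 1 mean for each group, and its two-sided moderated p-values were adjusted over all genes by Benjamini-Hochberg and held to 0.05. Probes were also tested over all probes kept. Standard errors are limma's. The scripts were tested on simulated data. The number of arrays limits the precision. Scaling by a percentile hides a change shared by most genes.

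The 10 genes and the lists were chosen with earlier results of these data known. The rule named the 10 genes, up to 3 genes of each partner list with the smallest adjusted p between laser and bur, and the 3 genes most correlated with each of Hsp90aa1, Hspd1 and Hsf1, of which unnamed probes and one further locus are left out. Small counts led to further names. Chosen after seeing the data were the comparison of early and late probes over all genes, 2 scalings (the percentile over spots, and median centring), the fits with 1 treated slide at a time and the sequences shown.

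Same-numbered arrays were checked for shared deviations, and since not every pair correlated above 0.1 and the labels name no shared source, replicate number was kept out of the fit. Alternatives were quantile normalization, a percentile over probes detected on all arrays, normexp with offset 50, the authors' table, other filters, the mean of a gene's probes, 2 groups in the fit, a block for replicate or for slide, a variance trend with intensity, and leaving out each array. The slide block was a term of the model between laser and bur. Against control it was a correlation shared by arrays of a slide, which does not adjust for slide.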

Additional observations from a re-analysis of the deposited data

Results flagged for a closer look

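Among 31 genes in 3 groups, 93 gene and group combinations were checked for an array whose gap to the others was large against the range of its group, and 5 were found, where chance gives about 1 in 20. For Stip1, control replicate 2 read 0.64 and the other control arrays 0.40 to 0.43. For Hspa8, bur replicate 4 read 8.66 and the others 8.50 to 8.52. For Cct4, laser replicate 3 read 1.54 and the others 1.39. For Yme1l1, control replicate 1 read 1.91 and the others 2.16 to 2.19. For Hsf2, control replicate 1 read 0.89 and the others 0.65 to 0.68.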

How the results depend on the processing

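The 0 of 10 genes between laser and bur stayed 0 in all 27 other settings, 12 of which left out an array. The count of all genes passing there, 1 in the main setting, was 5 with normexp, 10 with slide as a block (9 higher, 1 lower), 2 with an intensity trend, 3 on slide 1 alone, 0 on slide 3 alone, 0 with the mean of a gene's probes, 0 with 2 groups in the fit, and 0 to 1 without an array. The 5 of 10 between laser and control became 3 with quantile normalization (0 higher, 3 lower), with the percentile over probes detected on all arrays, without a filter, with slide as a block, with the percentile over spots and on slide 1 alone (3 higher, 0 lower), and 2 to 5 without an array. The 4 between bur and control became 7 in the authors' table (2 higher, 5 lower), 6 with the mean of a gene's probes (1 higher, 5 lower), 5 with normexp (3 higher, 2 lower) and 3 with slide as a block, without a filter and with median centring (1 higher, 2 lower each). The sign turned for Hsp90aa1 in the authors' table, at -0.52 with laser and -0.56 with the bur, and for Hsp90ab1 with laser at -0.012 there, and with the mean of its probes at -0.43 with laser and -0.61 with the bur, since early probes then enter. Of 2496 values of named genes under other settings, 64 more changed sign but passed in neither setting. With laser, Cdc37 passed in 26, Stip1 in 25, Ahsa1 in 22, Hsp90ab1 in 14 and Hsp90aa1 in 12 of 27 settings with the main sign. Hspa1a passed between laser and bur in 18 of the 27, failing among others with 2 groups in the fit. With the bur, Cdc37, Stip1 and Ahsa1 passed in 27 and Chordc1 in 16. With replicate number as a block, 0 genes of the set passed between laser and bur, 6 between laser and control, with Hspe1 (0.37, adjusted p = 0.0302) the added one, and 4 between bur and control. Hspa1a also passed between bur and control under that block (0.82, adjusted p = 0.0381). All same-numbered correlations were positive, at 0.04 to 0.58, with 4 of the 12 under 0.1. Causes were not tested beyond the entry of early probes.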
